A study of Mus musculus with 6 samples.

Results

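The 6 RNA-seq libraries, of which 3 were made from AE9a leukemia cells of central bone marrow (CBM1 to CBM3) and 3 from those of endosteal bone marrow (EBM1 to EBM3), fell on both sides of a split that ran across the marrow regions. CBM1, EBM1 and EBM2 formed set A, and CBM2, CBM3 and EBM3 formed set B, so that all 6 of 6 libraries and all genes were used. The sets were read from the counts themselves, as the sides of the first principal component over 13352 genes. Every difference between set A and set B is therefore a description without a test, and only the contrast of the regions was tested. The cells were C57BL/6 mouse leukemia cells that carried AML1-ETO9a (AE9a), a truncated product of the t(8;21) fusion gene, which a retrovirus had delivered into c-Kit+ progenitors of the marrow. Leukemia was passed on by serial transplantation into C57BL/6 recipients, and both regions came from mice of this transplanted line. CBM cells were flushed from femurs and tibias, EBM cells were then released from the bones by warm collagenase I, and cells of both regions were sorted and held in serum-containing medium. Enzyme treatment was thus a part of the EBM preparation and not of the CBM preparation. The cells came from the third generation of transplanted mice, and the study's methods give a purchase age of female C57BL/6 mice and an average latency, but not the age or latency of each sampled mouse. Whether libraries of the same number shared a mouse is not given in the sources used here. The leukemia descends from a single transplantable line, which limits it as a model of separate leukemias, and p-values measure the spread between these libraries only.

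Blood progenitors that carry Gata2 and Kit can mature along several routes, among them the mast cell and basophil route, in which cells store proteases and histamine in granules, and the erythroid route, in which cells make heme, globin and a specialised membrane skeleton. Hypoxia-inducible factor (HIF) is the transcription factor that accumulates at low oxygen and raises genes of glucose uptake and glycolysis, and leukemia cells use glycolysis heavily. Cycling cells raise genes of DNA replication in the S phase and of chromosome segregation in the M phase, and inhibitors of cyclin-dependent kinases oppose both.

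On the first principal component, which held 53% of the variance, CBM1 scored 38.5, EBM1 36.4 and EBM2 19.8, while CBM3 scored -5.81, CBM2 -42.9 and EBM3 -46.0. EBM2 was the member of set A just inside the border and CBM3 the member of set B just outside it, with a distance between them that was smaller than that between CBM3 and the other libraries of its set. Over all genes CBM3 correlated best with CBM1 of set A, which is of the same region (Pearson r 0.983 of log2 CPM). With CBM2 and EBM3 of its own set the r was 0.978 for both. The second component (19.7%) carried the regions, with scores between 14.8 and 22.2 in EBM and between -31.5 and -3.58 in CBM. The third component (14.5%) placed CBM2 at 31.4, EBM2 at 10.9 and EBM3 at -27.8, and the other libraries between -9.04 and -2.42.

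**Figure D1:**
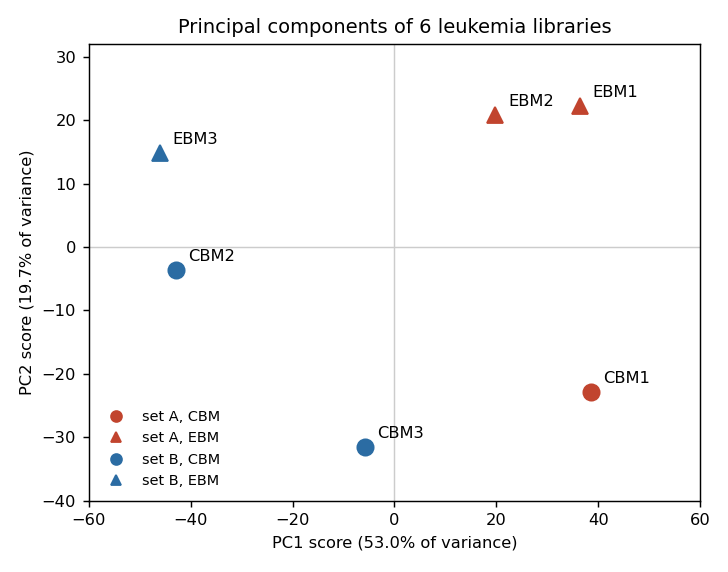
Scores of the 6 libraries on the first (horizontal) and second (vertical) principal component of log2 CPM; circles are CBM, triangles are EBM, red is set A and blue is set B. Set A lies to the right (19.8 to 38.5) and set B to the left (-46.0 to -5.81), whereas the regions separate along the vertical axis.

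Each library held 16436526 to 19462964 counts, overlapping between the sets, and a floor of 3 counts corresponded to between 0.154 and 0.183 CPM (counts scaled to a common library size, and a floor for counting error only). Values are CPM after TMM scaling unless a log2 scale is named, and a set difference is the mean log2 CPM of set A minus that of set B. RNA classes were close, but reads on lincRNA genes made up 0.954%, 0.968% and 1.03% of counts in CBM1, EBM1 and EBM2 against 0.908%, 0.897% and 0.745% in CBM3, CBM2 and EBM3, without overlap. Reads on genes annotated as antisense behaved alike, with 0.203% to 0.221% in set A and 0.144% to 0.187% in set B. The part of RNA handling in the split was not tested.

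As a check of the labelled cell type, Kit, the receptor used to obtain the founding progenitors, was at 225, 227 and 239 CPM in CBM1, EBM1 and EBM2 and at 224, 210 and 196 CPM in CBM3, CBM2 and EBM3. Ptprc, which encodes the pan-leukocyte antigen CD45, was at 0.0992 CPM (CBM3) to 3.58 CPM (CBM2) only, and the myeloid markers Cd33 and Itgam stayed at or below 1.45 and 1.05 CPM. By contrast Gata2 was at 700 to 1174 CPM, Ms4a2, the beta chain of the high-affinity IgE receptor, at 652 to 1051 CPM, and the erythroid carbonic anhydrase Car1 at 2481 to 3053 CPM in all 6 libraries. The cells labelled leukemia cells thus had Kit and Gata2 in each library, with little of the CD45 gene, and neither Kit nor Gata2 was spread apart by the split beyond a set difference of 0.13 and 0.11 (log2). Runx1, the mouse gene of the fusion's DNA-binding partner, was at 722, 616 and 506 CPM in CBM1, EBM1 and EBM2 and at 482, 330 and 371 CPM in CBM3, CBM2 and EBM3. Runx1t1, the gene of the other fusion partner, was at 26.5 to 41.0 CPM in set A and 20.5 to 23.9 CPM in set B. Whether reads of the retroviral fusion were counted on these genes is not given in the sources used here.

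Across the genome 1962 genes were higher in every library of set A than in any of set B (14.7% of the 13352 genes tested) and 1793 were higher in every library of set B (13.4%), 3755 in all (28.1%). Since the sets were chosen on these genes, the counts are a consequence of the choice and nothing is read from them. The shares of 14.7% toward set A and 13.4% toward set B are the background for each list count below. Larger differences were unevenly spread, with 600 genes at least 2-fold higher in set A without overlap (4.49%) and 140 in set B (1.05%). The standard deviation of the set difference over genes was 0.556, beside 0.370 for the EBM against CBM difference, and 908 against 339 genes passed a 2-fold difference. The sets follow the first component. A wider spread than that of the regions was thus fixed by that choice, and nothing is read from it. The median set difference over all genes was -0.006. In bulk RNA, fewer cells of a type and less RNA per cell cannot be told apart, which holds for every value that follows.

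The split could be read inside each region with separate libraries. Within CBM it was CBM1 against CBM2 and CBM3, and within EBM it was EBM1 and EBM2 against EBM3. Over the 13352 genes these 2 differences, which share no library, correlated with a Pearson r of 0.673 and a Spearman rho of 0.578. Genes are not independent, libraries of the same side were put together because of these same counts, and the correlation is given as a description. CBM3 was the library of set B nearest to set A in 2400 of the 3755 genes without overlap (63.9%), and EBM2 the library of set A nearest to set B in 2170 (57.8%).

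**Figure D2:**
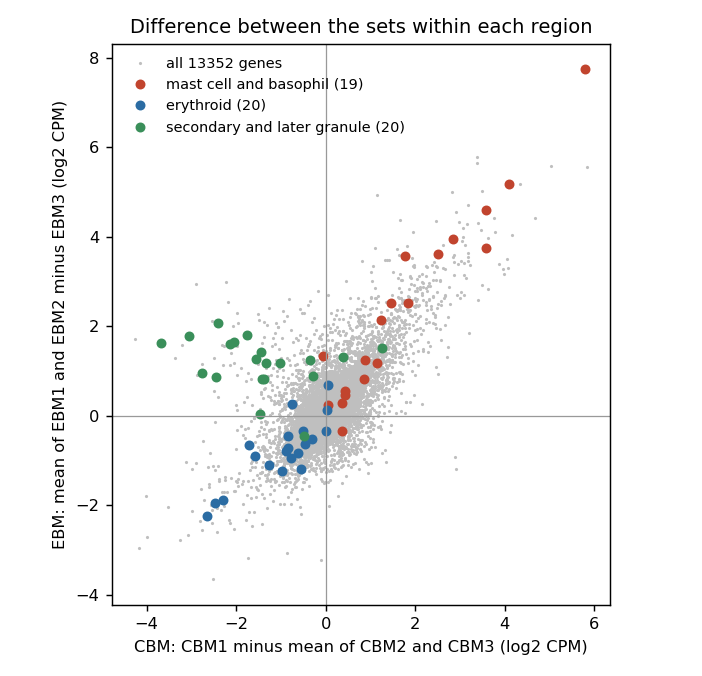
Difference in log2 CPM between set A and set B libraries inside CBM (horizontal) and inside EBM (vertical), each grey point a gene; red points are 19 mast cell and basophil genes, blue 20 erythroid genes and green 20 genes of neutrophil secondary and later granules. Red points lie mostly at upper right (medians 1.24 and 2.14), blue at lower left (medians -0.81 and -0.76), and green at upper left (medians -1.46 and 1.26).

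Maturation genes of the mast cell and basophil route made the widest split among the lists. Of 22 listed genes 19 were tested, and 13 were higher in set A without overlap (68.4%, beside 14.7% over all genes). All 19 had a higher mean in set A, with a median set difference of 1.73. Their summed level was 6783 to 7033 CPM in set A and 3352 to 4991 CPM in set B. Within the list, the split ran through some genes and left others nearly level.

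Cyp11a1, the mitochondrial enzyme that starts steroid synthesis from cholesterol, was at 118, 116 and 73.4 CPM in CBM1, EBM1 and EBM2 and at 4.37, 0.895 and 0.321 CPM in CBM3, CBM2 and EBM3. It had the widest gap of any protein-coding gene above 10 CPM, 4.04 on the log2 scale between EBM2 and CBM3. The mast cell protease Cpa3 was at 224, 210 and 180 CPM in CBM1, EBM1 and EBM2 and at 44.3, 3.74 and 5.2 CPM in CBM3, CBM2 and EBM3, a set difference of 4.4. Fcer1a, the IgE-binding chain of the same receptor as Ms4a2, was at 106, 98.0 and 76.5 CPM against 17.6, 4.26 and 3.47 CPM in the same order. In each of these genes the set A libraries stood close together and CBM3 stood between them and the other set B libraries. Cma1, a chymase of mast cell granules, was at 41.1 to 45.8 CPM in set A and 2.70 to 13.1 CPM in set B. Slc18a2, which loads histamine and serotonin into granules, was at 121, 97.7 and 68.6 CPM against 42.6, 10.4 and 6.55 CPM. Mitf, a transcription factor of the mast cell and melanocyte lineages, was at 32.7 to 40.7 CPM in set A and 15.2 to 20.8 CPM in set B (chosen after its values were seen).

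Other genes of the same route stayed closer between the sets. Ms4a2 was at 1051, 932 and 987 CPM in CBM1, EBM1 and EBM2 and at 1013, 652 and 782 CPM in CBM3, CBM2 and EBM3, so that CBM3 lay among set A. Il1rl1, the interleukin-33 receptor, was at 1301, 1097 and 1139 CPM against 1127, 838 and 762 CPM, again with CBM3 among set A. Hdc, which makes histamine, was at 863, 1492 and 1349 CPM against 594, 376 and 598 CPM, without overlap. The connective-tissue mast cell proteases Tpsb2 and Mcpt4 and the basophil protease Mcpt8 were below the filter, at no more than 1.21 CPM in any library. The split therefore ran from set A, with Ms4a2, Il1rl1, Cpa3, Fcer1a and Cyp11a1, to CBM2 and EBM3. Those libraries kept Ms4a2 and Il1rl1 and had little Cpa3, Fcer1a or Cyp11a1. CBM3 lay between for Cpa3 and Fcer1a.

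Erythroid genes leaned the other way. All 20 listed genes were tested and 18 had a higher mean in set B, with a median set difference of -0.76. Of the 20 genes, 9 were higher in set B without overlap, beside 13.4% over all genes. None was higher in set A without overlap, beside 14.7% over all genes. Gfi1b, a repressor needed in red cell and platelet precursors, was at 129, 111 and 141 CPM in CBM1, EBM1 and EBM2 and at 203, 316 and 351 CPM in CBM3, CBM2 and EBM3 (chosen after its values were seen). Klf1, the transcription factor of globin and red cell membrane genes, was at 132, 102 and 124 CPM against 178, 210 and 254 CPM. Epor, the erythropoietin receptor, was at 94.6, 81.8 and 85.2 CPM against 125, 209 and 161 CPM. The sets did not overlap for any of the 3, and CBM3 was the lowest library of set B in each.

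Slc4a1, the anion exchanger of the red cell membrane, was at 285, 433 and 771 CPM in CBM1, EBM1 and EBM2 and at 866, 2236 and 2125 CPM in CBM3, CBM2 and EBM3, and Epb42, which ties it to the membrane skeleton, at 64.6, 64.6 and 96.5 CPM against 116, 207 and 168 CPM. EBM2 and CBM3 lay next to each other for both, and the gap was -0.17 and -0.27 (log2). Hemgn, an erythroid nuclear protein, was at 30.4, 25.3 and 45.5 CPM against 67.3, 131 and 91.4 CPM, and Art4, which carries the Dombrock blood group antigen, at 6.09, 4.42 and 8.80 CPM against 14.7, 33.2 and 24.6 CPM. Gata1 was at 202 to 211 CPM in set A and 244 to 292 CPM in set B, a small separation without overlap. Globin genes did not follow the sets together: Hba-a2 was at 19.6, 66.4 and 111 CPM against 54.3, 223 and 333 CPM, whereas Hbb-bs was at 1117, 1279 and 1338 CPM against 808, 1434 and 807 CPM. Hba-a1 and Hba-a2, as well as Hbb-bs and Hbb-bt, are near-identical copies between which reads cannot be placed with certainty. Car1 did not split, with a set difference of 0.13.

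**Figure D3:**
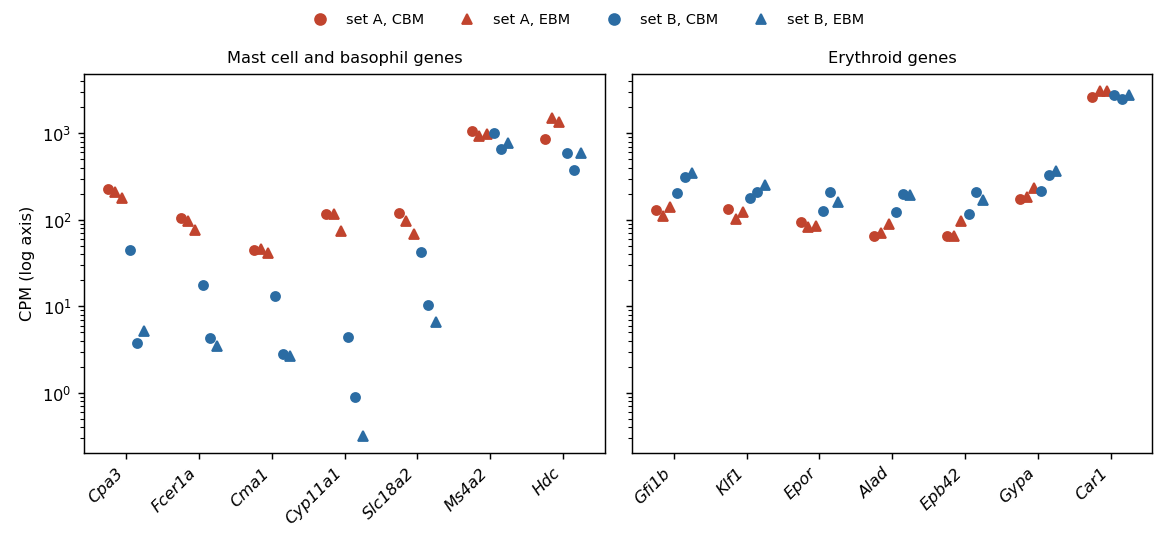
CPM of 7 mast cell and basophil genes (left) and 7 erythroid genes (right) in the 6 libraries on a log axis, each point a library, in the order CBM1, EBM1, EBM2, CBM3, CBM2, EBM3. Cpa3, Fcer1a, Cma1, Cyp11a1 and Slc18a2 fall steeply from red to blue with CBM3 between, Ms4a2 and Car1 are nearly level, and Gfi1b, Klf1, Epor, Alad and Epb42 rise without overlap.

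Promoters of 4 genes from both ends of this axis are shown because the letters AGATAA, the word read by GATA factors, occur in each of them, and Gata2 and Gata1 were present in all libraries. The sequences are the 250 bases before the gene start from RefSeq on GRCm38.p6, 5′ to 3′ on the gene's strand, which is minus for all 4, with AGATAA or its reverse complement in capitals. Cpa3 and Fcer1a are higher in set A, at chr3:20242182-20242431 and chr1:173227230-173227479, and Epb42 and Epor are higher in set B, at chr2:121036878-121037127 and chr9:21963577-21963826.
Cpa3: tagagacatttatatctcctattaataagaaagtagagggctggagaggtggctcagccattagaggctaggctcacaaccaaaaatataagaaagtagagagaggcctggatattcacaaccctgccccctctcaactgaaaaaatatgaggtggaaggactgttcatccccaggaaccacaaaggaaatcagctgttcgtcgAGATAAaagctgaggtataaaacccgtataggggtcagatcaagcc
Fcer1a: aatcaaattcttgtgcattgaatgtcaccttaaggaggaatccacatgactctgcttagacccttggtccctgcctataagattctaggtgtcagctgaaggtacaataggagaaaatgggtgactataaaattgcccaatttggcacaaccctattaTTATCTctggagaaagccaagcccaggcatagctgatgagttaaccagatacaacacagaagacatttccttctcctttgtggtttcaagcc
Epb42: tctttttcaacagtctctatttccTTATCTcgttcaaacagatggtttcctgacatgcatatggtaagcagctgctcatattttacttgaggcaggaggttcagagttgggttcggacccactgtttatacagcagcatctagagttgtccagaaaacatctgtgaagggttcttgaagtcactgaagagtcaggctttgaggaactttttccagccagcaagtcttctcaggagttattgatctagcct
Epor: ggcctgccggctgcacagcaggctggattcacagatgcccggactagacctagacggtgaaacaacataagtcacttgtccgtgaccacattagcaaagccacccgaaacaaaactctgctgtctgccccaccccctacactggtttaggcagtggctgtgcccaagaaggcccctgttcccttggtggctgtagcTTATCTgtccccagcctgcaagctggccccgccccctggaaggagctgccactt
The match begins 46 bases before the start of Cpa3, 92 before that of Fcer1a, 226 before that of Epb42 and 54 before that of Epor. Promoters of 300 bases (250 before and 50 after the start) were searched on both strands, and AGATAA was present in 12.7% of the 27025 genes in the table, in 7 of 18 mast cell and basophil genes with an entry (38.9%), in 8.42% of the 9064 tested genes with an entry, and, of the 100 such genes with the largest set difference in each direction, in 18 for set A and 19 for set B. The word was thus about equally frequent at both ends of the split. Only 15 of the 20 erythroid genes had an entry (75.0%), under the 80% required, so that their share was void and is not given. AGATAA was added to the words searched after the values were seen, and a match describes letters, not binding.

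Neutrophil maturation genes did not run along the split. Of 20 tested genes of secondary and later granules, 1 was without overlap in each direction and the median set difference was 0.22. The share was 5.0% each way, beside 14.7% toward set A and 13.4% toward set B over all genes. S100a8, a calcium-binding protein of neutrophil cytoplasm, was at 2.22, 12.7 and 40.4 CPM in CBM1, EBM1 and EBM2 and at 0.595, 57.1 and 8.35 CPM in CBM3, CBM2 and EBM3. Ngp, a secondary granule protein, was at 1.54, 12.2 and 42.8 CPM against 0.992, 47.9 and 7.45 CPM. The high libraries, EBM2 and CBM2, carried the same number in the labels and lay on opposite sides of the split. The low libraries, CBM1 and CBM3, also lay on opposite sides.

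In the primary granule list 7 of 19 tested genes were higher in set A without overlap and none in set B. The share toward set A was 36.8%, beside 14.7% over all genes. The median was 0.77, but the defining enzymes were not among the 7. The median rested on single libraries, at 0.21 without EBM2, 0.43 without CBM3, 1.16 without CBM2 and 1.37 without CBM1, and was 0.08 without EBM2 and CBM3. Mpo, myeloperoxidase, was at 1.65, 21.2 and 35.8 CPM in CBM1, EBM1 and EBM2 and at 3.13, 14.9 and 5.53 CPM in CBM3, CBM2 and EBM3, and Elane, neutrophil elastase, at 0.512, 10.5 and 14.7 CPM against 0.943, 7.90 and 1.48 CPM. Members that did separate were Igfbp4, an insulin-like growth factor binding protein, at 39.4 to 64.9 CPM against 8.48 to 25.4 CPM, Cst7, an inhibitor of lysosomal proteases, at 48.8 to 65.9 CPM against 13.6 to 35.2 CPM, and Srgn, the core protein of granule proteoglycan, at 1317 to 1569 CPM against 828 to 1020 CPM. Srgn is used by mast cells as well as by neutrophils. Within CBM the list median was -0.15 and within EBM 1.57, so the regions differed in how this list followed the sets, and that difference was not tested.

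Summed markers of lymphoid, bone and endothelial cells overlapped between the sets. Summed levels of the 16 B cell genes were 15.9 to 31.7 CPM in set A and 12.6 to 48.0 CPM in set B, led by Igkc in CBM2 (22.6 CPM) and EBM2 (13.9 CPM) and by Cd79b (6.30 to 11.3 CPM in EBM1, EBM3 and CBM3 and 13.8 CPM in CBM1) in the other libraries, with Pax5 and Ms4a1 at or near 0. For 17 T and NK cell genes the sums were 4.55 to 11.6 CPM and 7.74 to 15.8 CPM, led by the kinase gene Lck (2.28 to 5.73 CPM in set A and 7.29 to 12.5 CPM in set B), with Cd3e at 0 to 0.0557 CPM. The 18 bone and stroma genes summed to 8.39 to 10.6 CPM and 8.73 to 13.4 CPM, nearly all Runx2, with Sp7 and Bglap2 at 0, and of 12 endothelium genes Plvap and Eng gave most of 70.9 to 87.7 CPM and 85.7 to 102 CPM while Emcn was at 0 and Cdh5 at no more than 0.114 CPM. Summed secondary granule genes were 142 to 374 CPM in set A and 158 to 506 CPM in set B. None of these 5 sums separated the sets, although Lck, Runx2 and Eng did so as single genes. The sums of 30 monocyte and macrophage genes (129 to 185 CPM in set A and 79.2 to 102 CPM in set B) and of 13 megakaryocyte and platelet genes (581 to 731 CPM and 231 to 418 CPM) did separate the sets. The latter sum was mostly F2r, the thrombin receptor, at 675, 623 and 529 CPM in CBM1, EBM1 and EBM2 and at 380, 196 and 247 CPM in CBM3, CBM2 and EBM3, and Lgals3, a galectin, gave the largest part of the former at 63.0 to 64.4 CPM against 31.8 to 53.2 CPM. The mean of either list centred gene by gene overlapped between the sets, and the part of other cells in the split was not tested.

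Stem and progenitor genes leaned toward set A. Of 30 listed genes 17 were tested, 7 were higher in set A (41.2%) and 2 in set B (11.8%) without overlap, and the median set difference was 0.34. Cd34, a surface sialomucin of progenitors, was at 15.4, 16.4 and 10.5 CPM in CBM1, EBM1 and EBM2 and at 4.86, 1.16 and 1.22 CPM in CBM3, CBM2 and EBM3. Muc13, a mucin of progenitor cells and epithelia, was at 209 to 245 CPM against 42.8 to 120 CPM, and Ikzf2, a zinc finger factor of the Ikaros family, at 177 to 224 CPM against 60.3 to 102 CPM. Lmo2, a bridging factor of the Tal1 and Gata complex, went the other way, at 238 to 268 CPM in set A and 314 to 442 CPM in set B. Hlf, a further member of the list, did the same, at 11.2 to 15.9 CPM against 19.0 to 35.2 CPM. Myb and Tal1 overlapped. Hoxa9, Mecom, Mn1, Hoxb4, Procr and Ly6a were at or below 0.263 CPM in all 6 libraries. These members of the list gave no values to compare.

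Receptors and adhesion molecules that separated the sets were mostly higher in set A. Csf2rb, the receptor chain shared by interleukin-3, interleukin-5 and GM-CSF, was at 854 to 1059 CPM in set A and 334 to 683 CPM in set B. Csf2rb2 was at 662 to 847 CPM against 118 to 338 CPM. Csf2rb and Csf2rb2 are paralogs, so reads may be shared between them. Itgal, the alpha chain of the leukocyte integrin LFA-1, was at 97.5, 89.8 and 68.9 CPM in CBM1, EBM1 and EBM2 and at 40.2, 17.8 and 15.3 CPM in CBM3, CBM2 and EBM3. Itga2b, an integrin chain of platelets, progenitors and mast cells, was at 20.4 to 23.8 CPM against 3.53 to 10.8 CPM. The homing receptor Cxcr4 did not exceed 2.58 CPM in any library. Of 22 tested members of this list, 7 were higher in set A (31.8%, beside 14.7% over all genes) and 2 in set B (9.09%, beside 13.4%) without overlap.

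Beyond the lists, 15 genes in each direction were named for the widest gap. Cd69, an early activation antigen, was at 175, 184 and 219 CPM in CBM1, EBM1 and EBM2 and at 21.3, 11.5 and 11.2 CPM in CBM3, CBM2 and EBM3, with a gap of 3.04 and with EBM2 as the highest library. The inhibitory receptor genes Lilrb4a and Lilr4b, which are close paralogs, were at 44.3 to 87.6 CPM and 97.0 to 176 CPM in set A and at 1.35 to 6.32 CPM and 3.21 to 14.2 CPM in set B. For the paralogous protease inhibitors Serpina3g and Serpina3f the ranges were 408 to 865 CPM and 18.8 to 39.0 CPM in set A against 13.1 to 139 CPM and 0.316 to 3.23 CPM in set B. Rgs1, which shortens G protein signals, was at 496, 675 and 500 CPM against 107, 77.9 and 125 CPM. The kinase gene Src was at 12.5 to 26.4 CPM against 0.684 to 2.18 CPM, Phlda1 at 57.3 to 84.0 CPM against 7.0 to 11.3 CPM, Clec4e, a lectin receptor, at 16.6 to 24.8 CPM against 0.835 to 5.16 CPM, and Tyrobp, an adaptor of activating receptors, at 17.4 to 21.0 CPM against 1.73 to 5.95 CPM. Gm4847 was at 41.4 to 71.5 CPM in set A, 14.1 CPM in CBM3 and 0.964 CPM in EBM3, with no count in CBM2.

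Gaps toward set B were narrower. Chrm1, a muscarinic acetylcholine receptor, was at 5.69, 4.58 and 11.1 CPM in CBM1, EBM1 and EBM2 and at 21.7, 29.5 and 37.7 CPM in CBM3, CBM2 and EBM3, with the widest gap in this direction, -0.96. Atp7b, a copper exporter, had the largest set difference of the 15, -3.08, with 1.88, 5.35 and 12.4 CPM against 20.1, 63.4 and 64.0 CPM. Steap3, the ferrireductase of erythroid iron uptake, was at 61.1 to 72.8 CPM against 113 to 150 CPM. Minpp1, an inositol phosphate phosphatase, was at 82.4 to 99.3 CPM against 146 to 226 CPM, Abcg4, a sterol transporter, at 25.9 to 32.9 CPM against 51.6 to 100 CPM, and the homeobox gene Hoxc5 at 13.1 to 24.0 CPM against 37.4 to 69.8 CPM. Col5a1, Lhfpl2, Sowaha, Lrrc14 and Kif26b completed this group besides Hemgn, Art4 and the replication genes Cdc6 and Recql4, with set differences between -1.59 (Kif26b) and -0.72 (Recql4).

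Hypoxia and glycolysis genes were mostly higher in set A. Of 44 tested HIF target genes 32 had a higher mean in set A, with a median set difference of 0.37. Without overlap were 18 in that direction (40.9%, beside 14.7% over all genes) and 3 in the other (6.82%, beside 13.4%). Of 26 tested glycolysis genes, several of which are in both lists, the numbers were 21, 12 and 2, with a median of 0.44. The glycolysis shares without overlap were 46.2% and 7.69%. Mean levels of the glycolysis genes, centred on the 6 libraries, were 0.18, 0.28 and 0.21 in CBM1, EBM1 and EBM2 and 0.00, -0.40 and -0.28 in CBM3, CBM2 and EBM3 (log2). CBM3 stood close to set A on this scale, and CBM2 and EBM3 stood apart from the other 4 libraries.

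Vegfa, the angiogenic factor, was at 55.0, 56.0 and 42.0 CPM in CBM1, EBM1 and EBM2 and at 29.0, 11.3 and 9.32 CPM in CBM3, CBM2 and EBM3. Slc2a3, a high-affinity glucose transporter, was at 608, 706 and 606 CPM against 405, 136 and 217 CPM, and Pfkfb3, which makes the activator of phosphofructokinase, at 76.1, 88.9 and 58.7 CPM against 47.8, 18.1 and 23.7 CPM. Bhlhe40, a repressor that HIF raises, was at 230 to 292 CPM against 55.7 to 126 CPM. These 4 separated the sets without overlap, with CBM3 as the highest library of set B in each.

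Enzymes along the pathway did so to a lesser extent. Hk2, the hexokinase that traps glucose, was at 84.6, 111 and 86.5 CPM in CBM1, EBM1 and EBM2 and at 64.3, 34.3 and 54.2 CPM in CBM3, CBM2 and EBM3. Pgk1, phosphoglycerate kinase, was at 688, 736 and 645 CPM against 628, 324 and 405 CPM, and Pkm, pyruvate kinase, at 985 to 1236 CPM against 410 to 877 CPM. Ldha, lactate dehydrogenase, overlapped because CBM3 (1753 CPM) lay among CBM1, EBM1 and EBM2 (1688, 1832 and 1654 CPM), above CBM2 (932 CPM) and EBM3 (1187 CPM). Pfkm, the muscle-type phosphofructokinase, was higher in set B, at 98.0 to 121 CPM against 136 to 226 CPM. The oxygen sensors Egln3 and Egln1, which themselves are HIF targets, were at 2.70 to 4.18 CPM and 2.89 to 4.10 CPM in set A and at 0.193 to 1.54 CPM and 1.11 to 2.28 CPM in set B.

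Other HIF targets did not follow the sets. Slc2a1, the main glucose transporter of red cell precursors, was at 176, 186 and 196 CPM in CBM1, EBM1 and EBM2 and at 186, 281 and 135 CPM in CBM3, CBM2 and EBM3. Ddit4, a brake of mTOR complex 1, was at 43.0, 57.4 and 57.1 CPM against 36.1, 32.5 and 51.6 CPM, so that EBM3 of set B lay above CBM1 of set A. The 3 EBM libraries were the highest for Ddit4, with a log2 difference of EBM against CBM of 0.57 ± 0.13 (SE, n = 3 and 3) and an adjusted p of 0.304 by edgeR. Tfrc, the transferrin receptor, which erythroid cells also need for iron uptake, was in the HIF list but higher in set B, at 268 to 366 CPM against 459 to 539 CPM. Gapdh has many processed copies in the genome and was left uninterpreted.

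Promoters of Hk2 and Pgk1 are shown because they carry ACGTG, the core of the hypoxia response element, upstream of enzymes that separated the sets. The sequences are again the 250 bases before the start from RefSeq on GRCm38.p6, with ACGTG or its reverse complement in capitals, for Hk2 at chr6:82774455-82774704 on the minus strand and for Pgk1 at chrX:106186850-106187099 on the plus strand.
Hk2: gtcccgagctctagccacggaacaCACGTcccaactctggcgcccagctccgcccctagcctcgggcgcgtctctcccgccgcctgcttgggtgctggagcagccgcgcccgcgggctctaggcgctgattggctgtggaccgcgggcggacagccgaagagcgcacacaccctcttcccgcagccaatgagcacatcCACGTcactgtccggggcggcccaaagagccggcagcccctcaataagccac
Pgk1: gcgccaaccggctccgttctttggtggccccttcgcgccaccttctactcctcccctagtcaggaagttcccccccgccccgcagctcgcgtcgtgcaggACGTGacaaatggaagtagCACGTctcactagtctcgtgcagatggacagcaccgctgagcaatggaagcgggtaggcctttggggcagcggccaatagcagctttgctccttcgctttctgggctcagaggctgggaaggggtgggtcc
Matches begin 226 and 52 bases before the start of Hk2 and 150 and 131 bases before that of Pgk1. ACGTG, which is also contained in the E-box CACGTG, was present in 21.8% of the 27025 genes with a promoter, in 28 of 38 HIF target genes (73.7%) and 17 of 25 glycolysis genes (68%) with an entry. The HIF list was chosen for regulation by HIF, so its share says nothing about the split. It was present in 29.9% of the tested genes with an entry and, among the 100 of these with the largest set difference in each direction, in 24 for set A and in 29 for set B.

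**Figure D4:**
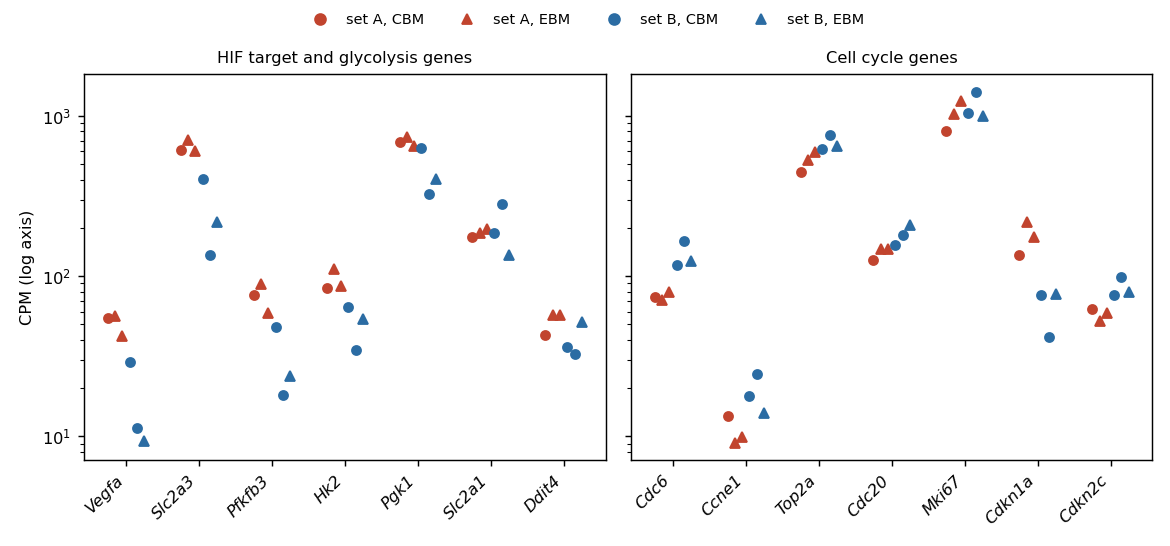
CPM of 7 HIF target and glycolysis genes (left) and 7 cell cycle genes (right) in the 6 libraries on a log axis, each point a library, in the order CBM1, EBM1, EBM2, CBM3, CBM2, EBM3. Vegfa, Slc2a3, Pfkfb3 and Hk2 are higher in red, Slc2a1 and Ddit4 overlap, Cdc6, Ccne1, Top2a, Cdc20 and Cdkn2c are higher in blue by less than their neighbours on the left, and Cdkn1a is higher in red.

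Mitochondrial metabolism was nearly level. The 76 tested nuclear genes of oxidative phosphorylation had a median set difference of -0.06, with 1 higher in set A and 9 in set B without overlap, the 13 protein-coding genes of the mitochondrial genome a median of -0.04 with no gene without overlap in either direction, and the 26 genes of the tricarboxylic acid cycle a median of -0.05. For oxidative phosphorylation the shares were 1.32% and 11.8%, both below those over all genes (14.7% and 13.4%). Idh3a, a subunit of isocitrate dehydrogenase, was at 182, 183 and 203 CPM in CBM1, EBM1 and EBM2 and at 233, 253 and 279 CPM in CBM3, CBM2 and EBM3, and Cs, citrate synthase, at 324 to 355 CPM against 377 to 500 CPM. In the tricarboxylic acid cycle list 3 genes were higher in set A (11.5%) and 4 in set B (15.4%) without overlap, shares near or below those over all genes, and the largest set difference was that of Pcx, pyruvate carboxylase, at 45.7, 45.1 and 23.5 CPM in CBM1, EBM1 and EBM2 and at 16.7, 9.42 and 7.71 CPM in CBM3, CBM2 and EBM3. Of 76 tested mitochondrial ribosomal protein genes 20 were higher in set B and 3 in set A without overlap, with a median of -0.08, and 79 cytosolic ribosomal protein genes had a median of 0.03 with 1 in each direction. The mitochondrial ribosomal shares were 26.3% toward set B and 3.95% toward set A, beside 13.4% and 14.7% over all genes.

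Lipid synthesis divided into parts. The 26 genes of the cholesterol synthesis list had a median set difference of 0.42, 22 with a higher mean in set A, but only 4 without overlap (15.4%, near the 14.7% over all genes). Without CBM2 the median was 0.19. Hmgcs1, the synthase ahead of the rate-limiting step, was at 67.5, 132 and 138 CPM in CBM1, EBM1 and EBM2 and at 50.6, 19.6 and 58.6 CPM in CBM3, CBM2 and EBM3. CBM2 was the low library, and EBM was above CBM within each set. Scd1, the stearoyl-CoA desaturase, ran the other way, at 120, 135 and 180 CPM against 224, 284 and 380 CPM, while the 13 tested genes of fatty acid synthesis and desaturation had a median of -0.06.

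Cycling genes were higher in set B by small amounts. Of 54 tested genes of DNA replication and the G1/S transition 52 had a higher mean in set B, 34 did not overlap in that direction and 1 in the other, and the median set difference was -0.29. For 67 genes of G2/M and mitosis the numbers were 65, 23 and 0, with a median of -0.23. Over all genes the share without overlap toward set B was 13.4%, as above, and the lists' shares were 63.0% and 34.3%. Mean levels of the replication genes were -0.21, -0.19 and -0.06 in CBM1, EBM1 and EBM2 and 0.12, 0.27 and 0.07 in CBM3, CBM2 and EBM3 (log2, centred on the 6 libraries). Here CBM3 stood with its own set, unlike its place in glycolysis. For the G2/M genes CBM2 (0.29) was the high library and CBM1 (-0.24) the low one, while EBM2 (0.003) and CBM3 (0.009) coincided. The median within CBM was -0.43 for G2/M and -0.42 for replication, and within EBM it was -0.10 and -0.19.

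Cdc6, which loads the replicative helicase, was at 73.9, 70.4 and 79.6 CPM in CBM1, EBM1 and EBM2 and at 117, 165 and 123 CPM in CBM3, CBM2 and EBM3. Fen1, the flap endonuclease, was at 9.10 to 11.7 CPM against 15.4 to 18.5 CPM, Mcm2, a helicase subunit, at 293 to 367 CPM against 429 to 467 CPM, and Dut, which removes dUTP, at 122 to 137 CPM against 171 to 208 CPM. Ccne1, the G1/S cyclin E, was at 13.4, 9.11 and 9.91 CPM against 17.8, 24.3 and 13.9 CPM, with CBM1 close to EBM3. Of the mitotic genes, Ccnb1, cyclin B, was at 107 to 123 CPM against 146 to 172 CPM, and Top2a, the topoisomerase that untangles chromosomes, at 444 to 594 CPM against 624 to 759 CPM. Mki67, the proliferation antigen, overlapped, at 808, 1031 and 1237 CPM against 1033, 1412 and 1002 CPM, and its lowest and highest libraries, CBM1 and CBM2, were both flushed.

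The promoter of Top2a is shown as that of a mitotic gene with TTTGAA, the core of the cell cycle homology region, near its start. It lies at chr11:99024190-99024439 on the minus strand (RefSeq, GRCm38.p6), with TTTGAA or its reverse complement in capitals.
Top2a: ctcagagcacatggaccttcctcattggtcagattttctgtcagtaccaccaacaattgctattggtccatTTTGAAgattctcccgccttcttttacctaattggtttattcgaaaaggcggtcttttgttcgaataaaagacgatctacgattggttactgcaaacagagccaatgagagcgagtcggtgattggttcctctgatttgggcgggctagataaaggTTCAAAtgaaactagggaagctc
Matches begin 179 and 23 bases before the start. TTTGAA was present in 20.2% of the 27025 genes with a promoter, in 38 of the 56 G2/M genes with an entry (67.9%), in 14.5% of the tested genes with an entry, and in 11 and 14 of the 100 of these with the largest set difference toward set A and set B. The DNA replication list had an entry for 43 of 54 genes (79.6%), under the 80% required, and its share was void.

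Several inhibitors of the cell cycle were higher in set A. Cdkn1a (p21) was at 134, 217 and 175 CPM in CBM1, EBM1 and EBM2 and at 76.6, 41.7 and 77.7 CPM in CBM3, CBM2 and EBM3, and Cdkn2a, which encodes p16 and p19Arf, at 24.2, 26.5 and 11.7 CPM against 5.71, 3.0 and 3.02 CPM. Cdkn2b (p15) was at 11.5 to 13.9 CPM against 4.05 to 8.55 CPM. Cdkn2c (p18), by contrast, was at 52.3 to 62.2 CPM in set A and 75.6 to 99.0 CPM in set B. Of 27 tested genes of quiescence and cell cycle brakes 9 were higher in set A (33.3%, beside 14.7% over all genes) and 4 in set B (14.8%, beside 13.4%) without overlap, and their median was 0.04. Cdkn1a is a target of p53, but of 19 tested p53 target genes 1 was without overlap in each direction and the median was -0.04. The clustered histone genes, whose RNAs lack a poly(A) tail and which rRNA-depleted RNA retains, had a median of 0.34, opposite in sign to the replication genes. Of 55 tested histone genes 15 were higher in set A without overlap (27.3%, beside 14.7% over all genes) and none the other way. Their share of counts also followed the region, at 0.117% to 0.132% in EBM and 0.0606% to 0.0924% in CBM, with an exact permutation p of 0.1, the smallest that 3 against 3 libraries allow.

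Immediate early and NF-kB genes were higher in set A and moved with the region too, so that sets and regions are in part confounded for them, since set A held 2 EBM libraries and set B held 1. Of 28 tested immediate early genes 11 were higher in set A without overlap and none in set B (median 1.04), and of 21 NF-kB genes 6 and none (median 1.02). The shares toward set A were 39.3% and 28.6%, beside 14.7% over all genes. At an unadjusted p under 0.05, 10 immediate early genes were higher and 1 lower in EBM, and 15 NF-kB genes were higher and none lower, while over all genes 535 were higher (4.01%) and 521 lower (3.9%). No gene of either list passed an adjusted p of 0.05 in edgeR's fit by region alone, with smallest values of 0.361 and 0.115. With the set as a term in that fit, 3 immediate early genes (2 higher and 1 lower in EBM) and 12 NF-kB genes (all 12 higher) passed. The smallest adjusted p was 0.00664 by edgeR in both lists. That term was read from these same counts, so the calls made with it are descriptive only.

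Single genes of these lists differed in which libraries were high. Fos was at 417 CPM in CBM1 and at 47.4 to 102 CPM in the other 5 libraries, and Jun at 994, 538 and 520 CPM in CBM1, EBM1 and EBM2 and at 217, 376 and 423 CPM in CBM3, CBM2 and EBM3 (both chosen after their values were seen). Klf2, a factor of quiescence that is also quickly induced, was at 105, 26.8 and 30.7 CPM against 13.5, 12.6 and 4.5 CPM. CBM1 was the highest library for these 3, whereas EBM1 was the highest for Fosb, at 5011 CPM against 3608 CPM in CBM1. Nr4a1, an orphan nuclear receptor of the early response, was at 12.1, 73.6 and 56.6 CPM against 4.56, 2.32 and 10.2 CPM, and Il1b, interleukin-1 beta, at 33.0, 208 and 170 CPM against 8.39, 5.0 and 63.8 CPM, so that EBM libraries were high within both sets. Fosl2, an AP-1 subunit, followed the sets, at 6.43, 18.6 and 18.3 CPM against 2.73, 1.53 and 1.29 CPM. Hspa1b, a heat shock protein and a near-identical copy of Hspa1a, followed the region, at 112, 50.3 and 58.6 CPM in EBM1, EBM2 and EBM3 and 3.37 to 9.50 CPM in CBM. The part of handling in the set A level of these genes was not tested.

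Interferon-stimulated genes were higher in 2 libraries of set B. Of 37 tested genes 29 had a higher mean in set B, 10 without overlap and 3 in the other direction, with a median of -0.39. Shares without overlap were 27.0% toward set B and 8.11% toward set A, beside 13.4% and 14.7% over all genes. Oas2, a sensor of double-stranded RNA, was at 61.7, 55.9 and 74.6 CPM in CBM1, EBM1 and EBM2 and at 83.8, 187 and 253 CPM in CBM3, CBM2 and EBM3, and Irf7, the amplifier of the interferon response, at 17.0, 24.0 and 21.9 CPM against 18.8, 55.7 and 89.9 CPM. CBM3 lay nearer to set A than to CBM2 and EBM3 for both, and the mean of the list was lower in CBM3 (-0.31) than in CBM1, EBM1 and EBM2 (-0.21, -0.12 and -0.18). CBM2 (0.29) and EBM3 (0.53) were the high libraries.

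**Figure D5:**
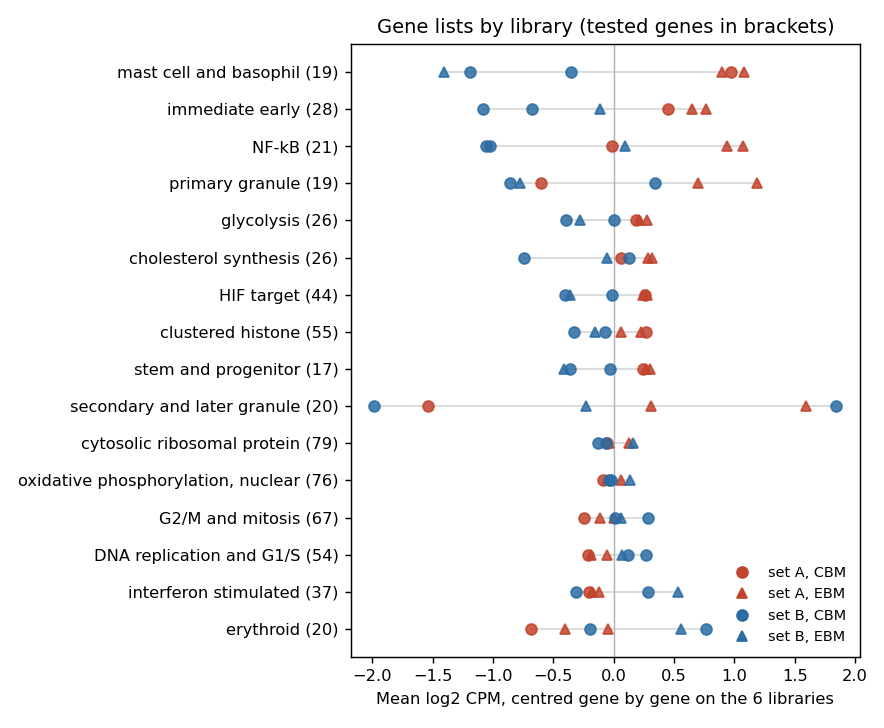
Mean log2 CPM of the tested genes of 16 lists in each library, centred gene by gene on the 6 libraries, with lists ordered by median set difference; circles are CBM, triangles EBM, red set A and blue set B. Red and blue are apart for mast cell and basophil (19 genes) and for DNA replication (54), CBM2 and EBM2 stand together at the right for secondary granules (20), and the points of oxidative phosphorylation (76) and ribosomal proteins (79) nearly coincide.

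The split did not follow gene structure. Over the 13352 genes the Spearman correlation of the set difference was 0.023 with gene length, 0.025 with the GC content of the longest transcript (13344 genes) and 0.070 with genomic span, and -0.15 with the mean level, as descriptions across genes that share libraries. The median set difference of each chromosome lay between -0.03 and 0.05. The 348 tested lincRNA genes had a median of 0.12, with 70 higher in set A and 23 in set B without overlap. Over all genes these directions held 14.7% and 13.4%. Neat1, a nuclear lincRNA, was at 336, 348 and 509 CPM in CBM1, EBM1 and EBM2 and at 273, 216 and 210 CPM in CBM3, CBM2 and EBM3. Xist, the RNA of the inactive X chromosome, did not follow the sets, at 2792 to 3215 CPM against 2412 to 3225 CPM.

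The region was the only contrast tested, to ask whether EBM differed from CBM beside the spread that the split adds to each region. By edgeR's quasi-likelihood test no gene passed an adjusted p of 0.05 (0% of 13352), 1056 genes had an unadjusted p under 0.05, and limma-voom also called 0 while DESeq2 called 175. When the set was added to the model as a term, 61 genes passed, 57 higher and 4 lower in EBM, although the set had been read from the same counts. In edgeR's fit by region alone, without the set, the smallest adjusted p was 0.0583, reached by Myc among others. Myc was at 133, 53.8 and 51.3 CPM in CBM1, EBM1 and EBM2 and at 137, 108 and 52.8 CPM in CBM3, CBM2 and EBM3, so that the 3 EBM libraries were below the 3 CBM libraries on both sides of the split, with a log2 difference of -1.26 ± 0.11 (SE, n = 3 and 3). Cpa3 and Cyp11a1, which carried the split, had region differences of 0.54 ± 1.46 and 0.63 ± 1.81 with an adjusted p of 0.983 for both, and the wide errors hold differences of several fold in either direction.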

How the data were processed

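The authors made directional libraries of 6 samples from RNA that the methods call rRNA-depleted and the labels mRNA, and deposited raw counts per gene for 54532 genes, with gene lengths. The submitters' processing notes name HISAT2 2.0.5 and mm10. The counting tool, its annotation and its use of strand are not given in the sources used here, so values of overlapping antisense pairs are uncertain. filterByExpr of edgeR 4.0.16 with the regions as groups kept 13352 genes, counts were scaled by TMM, and log2 CPM used 2 as prior count. Principal components were computed on these values without scaling of genes. Sets, list members and tests were chosen with earlier results of these data known. A gene did not overlap when all 3 libraries of a set were above all 3 of the other, and the gap is the log2 distance between the nearest libraries of the sets. EBM and CBM, 3 libraries each, were compared with the quasi-likelihood test of edgeR and p-values were adjusted by Benjamini-Hochberg, and shares of counts by an exact two-sided permutation test over 20 relabellings. The test was tried on simulated counts beforehand. Named genes were, in each of 38 lists, the 4 with the largest set difference in the direction of the list median (mean CPM of at least 5), the 15 protein-coding genes per direction with the widest gap (mean CPM of at least 10), and 12 reference genes, and of these the text names the ones that describe a programme. Other members of the lists that are named were picked with their values in view, and so were genes marked as such. Alternatives were DESeq2 1.42.0, limma-voom 3.58.1, other size factors, no filter, a prior count of 0.5, the replicate number as a block, the set as a term and leaving out libraries. R 4.3.3 and Python were used. Promoters came from RefSeq on GRCm38.p6 by symbol, for 9064 of the tested genes (67.9%).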

Additional observations from a re-analysis of the deposited data

How the results depend on the processing

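All 6 libraries kept their side of the first component with the 500 most variable genes (63.4% of variance) and after variance stabilization (59.9%). Counts of genes without overlap depended on the libraries nearest the border. Leaving out each library in turn gave 2239 to 2980 genes higher in set A and 2158 to 2676 higher in set B, and 579 to 883 and 115 to 260 for those at least 2-fold apart. Without CBM replicate 3 the counts were 2980 for set A and 260 for the 2-fold genes of set B, and without EBM replicate 2 the latter was 223. With both left out (chosen after seeing the data) the counts were 3607, 3342, 1001 and 359, and fewer libraries make non-overlap easier by construction. Keeping every gene with at least 1 count gave 241 of the 2-fold genes of set B. For EBM against CBM, DESeq2 called 175 genes, edgeR without the filter on low counts called 40 and the set as a term 61, and leaving out each library gave 0 to 0. Same-numbered libraries correlated with r of 0.68, -0.20 and 0.20 in their deviations from the region means, which cannot tell whether they shared a mouse. The numbers were not taken as pairs because the study's methods name an unpaired test for 2 groups. That is a general statement, which does not mention RNA-seq and does not show that the libraries were independent. The replicate block called 0 genes. CBM1 and EBM1 correlated best with each other, but CBM2 correlated best with EBM3 (0.51). No result of that fit differed in its call from the fit without the block.

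Medians of 5 lists turned sign. Over the libraries left out in turn they ranged from -1.06 to 0.84 for B cell genes, -0.79 to 1.28 for secondary granules, -0.27 to 0.80 for monocyte genes, -0.21 to 0.29 for endothelium and -0.031 to 0.39 for cytokine receptors. The sign turned without CBM replicate 3 or EBM replicate 2, and also without EBM replicate 1 for B cell genes and EBM replicates 1 and 3 for endothelium. With both border libraries out they were -1.74, -1.50, -0.47, -0.11 and -0.064. Medians near 0 also crossed 0 in other lists, among them heat shock (-0.11 to 0.15), dendritic cell and MHC class II (-0.15 to 0.22), ATF4 (-0.075 to 0.12), cell cycle brakes (-0.047 to 0.098), p53 targets (-0.033 to 0.12) and cytosolic ribosomal proteins (-0.028 to 0.13). Those of cholesterol synthesis and primary granules kept their sign but ranged from 0.19 to 0.62 and from 0.21 to 1.37. The bone and stroma median was 0.43 with every gene counted. Medians of mast cell, erythroid, HIF target, glycolysis, replication and mitosis genes kept their sign under every alternative run, from 1.34 to 2.08, -0.94 to -0.61, 0.27 to 0.55, 0.32 to 0.59, -0.36 to -0.24 and -0.31 to -0.15 over the libraries left out. The cause of these changes was not tested. Depth allows no statement on genes under about 0.183 CPM.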

Other observations

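Transcription factor genes gave both directions of the split outside the lists. Irf5, Etv5, Fli1 and Etv6 were higher in set A without overlap. Fli1, an ETS factor of megakaryocyte and progenitor cells, was at 70.0 to 91.8 CPM in set A and 25.1 to 48.1 CPM in set B, and Elf1 at 266 to 343 CPM against 172 to 199 CPM. Of 17 tested ETS family genes 6 were higher in set A and 1 in set B without overlap, with a median set difference of 0.23. Other families leaned the other way, such as HMG with 2 in set A and 6 in set B of 23 tested genes. Klf3, a repressor that Klf1 raises in red cell precursors, was at 32.8 to 39.6 CPM in set A and 54.2 to 109 CPM in set B, and Hoxc4, the neighbour of Hoxc5, at 52.1 to 60.6 CPM against 81.2 to 113 CPM. Tcf3, which encodes the E proteins, was at 248 to 250 CPM against 313 to 371 CPM. These genes and families were chosen after their values were seen. Over all genes 14.7% were higher in set A and 13.4% in set B without overlap, 28.1% in all.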
